A study of Mus musculus with 2 samples.

Results

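The other glutamatergic neurons of the mouse arcuate nucleus and median eminence were 164 of 4977 cell barcodes in a Drop-seq data set, 95 from Irx5KO mice and 69 from wild-type (WT) mice. A barcode was a member if it held at least 500 genes, at least 3 of the 5 neuronal transcripts Snap25, Syt1, Stmn2, Meg3 and Snhg11, and at least 1 transcript of Slc17a6. All of Slc32a1, Gad1, Gad2, Kiss1, Tac2, Foxb1, Ctxn3, Cpne9 and Nxph4 had to be at 0. The members were thus selected on the measured UMIs of these 15 genes and on the number of genes detected, and values of these genes are given as a description only. The last 9 genes take out GABAergic neurons, kisspeptin and neurokinin B neurons and mammillary neurons, so the members are what is left of the glutamatergic cells and need not be 1 cell type.

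The Irx5KO library came from pooled cells of 6 Irx5-/- mice, which are mutant for the Iroquois homeobox transcription factor Irx5, with no conditional allele or other change named. The WT library came from pooled cells of 7 mice. All were CD-1 mice aged 7 to 8 weeks, and live cells of the microdissected region were sorted before capture in droplets, which tags the 3' end of each transcript with a unique molecular identifier (UMI). With 1 library per genotype there is no replicate, so no difference below has a test between genotypes, and the 95% intervals cover counting error only.

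Glutamatergic neurons load glutamate into synaptic vesicles, and in the hypothalamus the transporter that does this is mostly VGLUT2, the product of Slc17a6. Many peptide-releasing neurons of the arcuate nucleus use GABA instead, and the glutamatergic ones include subsets of the Pomc neurons and the kisspeptin neurons. Neighbouring nuclei, such as the ventromedial and dorsomedial nuclei, are rich in Slc17a6 neurons, and many of these also make peptides that are released beside glutamate.

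The targeted gene was at 0 UMIs in all 2350 Irx5KO barcodes, against 16 UMIs in 14 of 2627 WT barcodes. In the members Irx5, Irx2, Irx3 and Irx6 were at 0 in both libraries, and Irx1 had 1 UMI in an Irx5KO member. A count of 0 in the Irx5KO members allows up to 8.49 CPM (summed UMIs scaled to 1000000 over the cells of a library), and in the WT members up to 16.9 CPM, so Irx5 was not detectable at this depth in either. Fto, a demethylase gene that lies beside the Iroquois genes, had 26 UMIs in 19 Irx5KO members and 6 UMIs in 6 WT members, and the interval of its ratio, 0.878 to 6.48, covered no difference. Among barcodes with at least 500 genes the Irx5KO library held 5001090 UMIs and the WT library 3912463 UMIs. The libraries shared 1 barcode sequence.

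The 95 Irx5KO members held 353263 UMIs, with a median of 2521 and a range of 632 to 11324 per cell. The 69 WT members held 177841 UMIs, with a median of 2129 and a range of 666 to 8103. Depth was spread unevenly, since barcodes with at least 5000 UMIs gave 65.4% of all UMIs in the Irx5KO members, against 22.4% in the WT members. Slc17a6 lies at chr7:51622006-51671119 on the plus strand (mm10). It was at 1 UMI in 56 of the Irx5KO members and in 35 of the WT members, so membership often rested on a single transcript. Just outside the rule, 44 Irx5KO and 22 WT Slc17a6 neurons held 1 UMI of an excluded gene, and 9 Irx5KO and 5 WT barcodes had 2 of the 5 neuronal transcripts.

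Oligodendrocyte transcripts were the most widespread of those from other cell types, with a UMI of any of 9 markers in 54 of 95 Irx5KO members and 35 of 69 WT members, and no marker at 0 in either library. The endothelial list summed to 1 and 2 UMIs with Cldn5 and Pecam1 at 0, and the mural list to 6 and 3 with Vtn at 0. Over 4 markers the astrocyte list summed to 3 and 2 with Gfap at 0. With its genes shared with other cell types it summed to 23 and 9. Such shared genes were also left out of the 52 markers below. Of 52 markers of other cell types, at least 3 UMIs in sum were found in 25 Irx5KO members and 15 WT members. The summed level of these markers ranged from 0 to 569 UMIs in an Irx5KO member and from 0 to 38 UMIs in a WT member, with a median of 1 in each library. An Irx5KO barcode with 569 such UMIs, mostly of oligodendrocyte genes, and a WT barcode with 38, mostly of microglial genes, stood apart. No barcode was removed as a doublet.

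Members made up 4.82% (95 of 1972) of Irx5KO barcodes and 3.77% (69 of 1829) of WT barcodes. The ratio was 1.28 with a 95% interval of 0.927 to 1.77, so the shares were not separated at this depth. Neurons of all kinds were 46.5% of Irx5KO barcodes and 34.4% of WT barcodes. Within neurons the members were 10.4% in Irx5KO and 10.97% in WT, a ratio of 0.945 (0.686 to 1.31). Among neurons under 1500 UMIs, the members were 12.9% of 240 Irx5KO neurons and 10.7% of 177 WT neurons. Among neurons with at least 5000 UMIs, they were 13.2% of 235 Irx5KO neurons and 6.38% of 94 WT neurons, with intervals of 9.14% to 18.2% and 2.38% to 13.4%. In the bins between, WT had the higher share. A share in a sorted library also depends on which cells survived sorting, whose part was not tested.

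**Figure D1:**
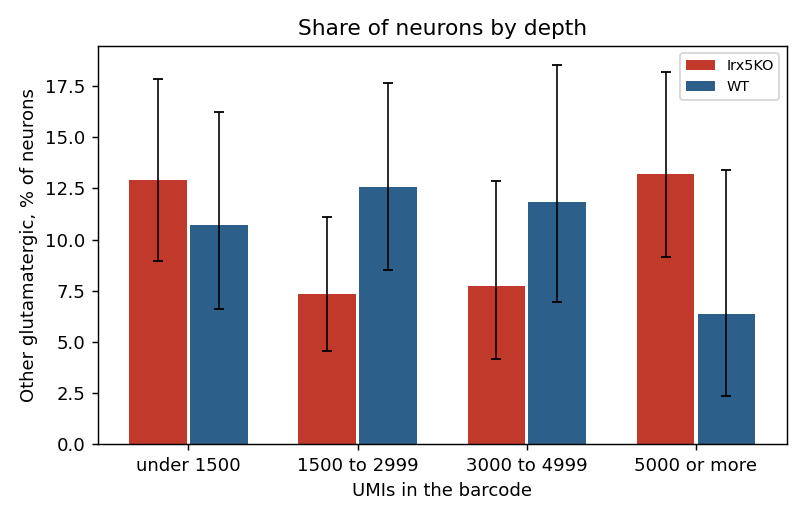
Share of neurons that were other glutamatergic neurons, in percent, by UMIs in the barcode, for Irx5KO (red) and WT (blue). Bars are shares and lines exact 95% binomial intervals. The intervals overlap in all depth bins, and the Irx5KO share is the higher one in the shallowest and deepest bins only.

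The members were next set against the GABAergic neurons of the same libraries, 478 in Irx5KO and 331 in WT, which had no Slc17a6 and at least 1 UMI of Slc32a1, Gad1 or Gad2. Since the rule chose the cells, these values are a description with no test. Of 2453 genes with at least 50 UMIs in the members, 49 (2%) were at least 1.5-fold above the GABAergic neurons in both libraries and 8 (0.326%) were at least 1.5-fold below in both. Slc17a6 is 1 of the 49 by construction, and no gene of the rule is named as a result below.

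Leading the first group was Pdyn (chr2:129686565-129699844, minus strand), which encodes prodynorphin, the precursor of the dynorphin opioid peptides. Pdyn had 121 UMIs in 32 of 95 Irx5KO members and 58 UMIs in 13 of 69 WT members, or 343 and 326 CPM. In GABAergic neurons it had 30.0 CPM in Irx5KO and 12.6 CPM in WT, so the members were 11.4-fold and 25.9-fold higher. Cck (chr9:121489824-121495694, minus strand), the gene of the peptide cholecystokinin, had 544 CPM in Irx5KO members and 427 CPM in WT members, against 38.8 and 141 CPM in the GABAergic neurons. Ppp1r17 (chr6:56017497-56032689, plus strand), which encodes a regulatory protein of protein phosphatase 1 and is best known from cerebellar Purkinje cells, had 459 CPM in Irx5KO members and 641 CPM in WT members. Its levels in GABAergic neurons were 72.5 and 154 CPM. For all 3 genes both member libraries lay above both GABAergic ones. The share of cells with a Ppp1r17 UMI was 33.7% in Irx5KO members and 29.0% in WT members, against 15.5% and 27.2% of GABAergic neurons, so in WT the levels differed more than the shares.

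Calb1, which encodes the calcium buffer calbindin, was 3.53-fold above the GABAergic neurons in Irx5KO and 3.44-fold above them in WT. Nkx2-1, a homeobox gene needed for the ventral hypothalamus, was 3.27-fold higher in Irx5KO and 2.99-fold higher in WT. Cacna2d1, the calcium channel subunit that binds gabapentin, was 2.83-fold and 5.01-fold higher. The cyclin gene Ccnd2 was 4.28-fold and 3.53-fold higher. The list goes on with Lypd1, whose product modulates acetylcholine receptors, the synuclein gene Sncg, the serine protease inhibitors Serpine2 and Serpini1, the AMPA receptor gene Gria3, the carbonic anhydrase-related gene Car10, the kinase gene Aak1 and Tnks2. These were 1.88-fold to 3.13-fold higher in both libraries, except Sncg and Car10, which reached 7.66-fold and 4.74-fold in WT. Sncg came from only 8 Irx5KO and 6 WT members. Tnks2 shares 60 identical bases near its 3' end with other genes, so its counts are uncertain.

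**Figure D2:**
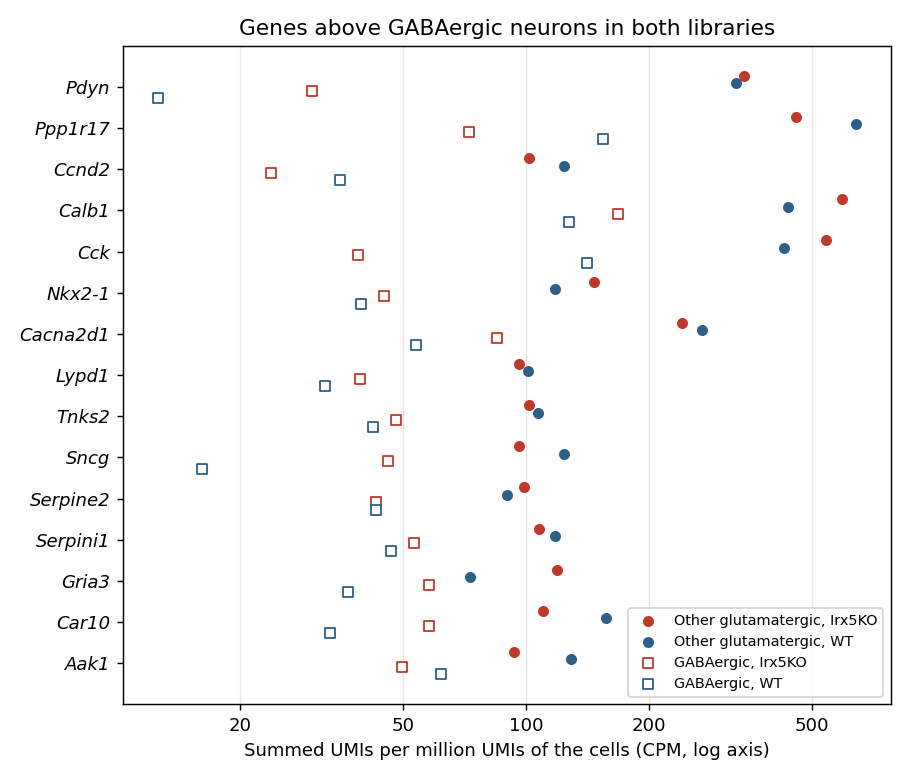
Levels of the 15 genes furthest above GABAergic neurons in both libraries, in CPM on a log axis, for other glutamatergic neurons (filled circles) and GABAergic neurons (open squares) of Irx5KO (red) and WT (blue). For each gene both circles lie to the right of both squares, from Pdyn at 343 and 326 CPM against 30.0 and 12.6 CPM to Aak1 at 93.4 and 129 CPM against 49.7 and 61.9 CPM.

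The 8 genes below included Cartpt, a peptide gene, and Dlk1, an imprinted gene. A minimum of 50 UMIs in the members leaves out genes that are nearly absent from them, so the 10 genes furthest below were taken with that minimum set in the GABAergic neurons instead. These included several known genes of GABAergic types. Vip, a peptide of suprachiasmatic neurons, had 2 UMIs in the Irx5KO members and 1 in the WT members, against 718 and 983 CPM in GABAergic neurons. Npy and Agrp, the peptides of the arcuate hunger neurons, had 9 and 5 UMIs in the Irx5KO members and 0 in the WT members. The GABAergic transcription factor gene Dlx1 was at 0 in both member libraries, against 119 and 132 CPM. Rasl11b, Trh, Six3os1, Rgs16, Six6 and Nms completed the list, with 0 to 12 UMIs each in a member library.

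Peptide genes were found at several UMIs in a part of the members. No peptide gene of 28 examined reached 3 UMIs in 48 of 95 Irx5KO members (50.5%) and 43 of 69 WT members (62.3%). A shallow cell reaches 3 UMIs less easily, so these members cannot be called neurons without a peptide. The peptide gene at 3 or more UMIs in most members was Pdyn, in 18 Irx5KO and 11 WT members. Cck followed in 15 and 7, Tac1, the substance P gene, in 12 and 5, Cartpt in 6 and 6, and Gal, the galanin gene, in 6 and 2. The highest Pdyn count in a cell was 15 UMIs in Irx5KO and 10 in WT.

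Pdyn, Cck and Ppp1r17 were often found in the same cells. Of the 22 Irx5KO members with Cck, 19 (86.4%) also had Pdyn, against 13 of 73 (17.8%) of those without Cck. Of the 17 WT members with Cck, 8 (47.1%) also had Pdyn, against 5 of 52 (9.62%) of those without. At least 2 of the 3 genes were found in 27 Irx5KO members (28.4%) and 14 WT members (20.3%), against 19 of 478 (3.97%) and 19 of 331 (5.74%) of GABAergic neurons. All 3 were found in 17 Irx5KO and 7 WT members. The 3 genes were taken from those furthest above the GABAergic neurons, so a higher joint share than in GABAergic neurons follows from that choice. Only the split of the members by Cck bears on whether the genes were found together. Members with Cck were deeper, with medians of 4031 UMIs in Irx5KO and 2158 in WT, against 2363 and 2051.5 in those without.

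Each cell was therefore thinned to 1000 UMIs, which left out 18 Irx5KO and 10 WT members. At least 2 of the 3 genes were then found in 22.1% (17 of 77) of Irx5KO members and 16.9% (10 of 59) of WT members, against 1.31% (6 of 458) and 0.683% (2 of 293) of GABAergic neurons. The contrast with GABAergic neurons again follows from the choice of genes. Within members, Pdyn was in 9 of 15 Irx5KO members with Cck and 9 of 62 without. In WT it was in 3 of 8 members with Cck and 8 of 51 without. In oligodendrocytes, which should lack these genes and measure free RNA in the droplets, no cell of either library had 2 of the 3 (0 of 116 in Irx5KO, which at 3 cells allows up to 2.59%, and 0 of 195 in WT, which allows up to 1.54%), at median depths of 1708.5 and 1878 UMIs.

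**Figure D3:**
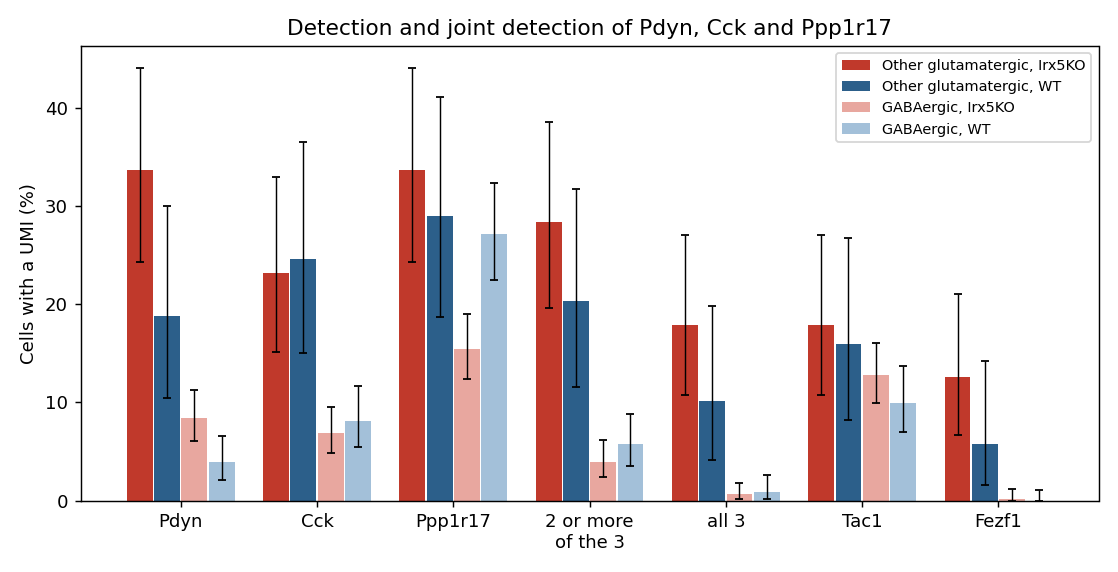
Percent of cells with at least 1 UMI of Pdyn, Cck, Ppp1r17, Tac1 or Fezf1, and with 2 or more or all 3 of Pdyn, Cck and Ppp1r17, for other glutamatergic neurons (dark) and GABAergic neurons (light) of Irx5KO (red) and WT (blue). Lines are exact 95% binomial intervals. At least 2 of the 3 were found in 28.4% and 20.3% of members against 3.97% and 5.74% of GABAergic neurons. The 3 genes were chosen for being above GABAergic neurons, so this contrast follows from the choice.

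Tac1 was in 17 Irx5KO and 11 WT members. Of these, 3 of 17 and 1 of 11 also had 2 or more of Pdyn, Cck and Ppp1r17, beside 27 of 95 and 14 of 69 among all members, and these few cells do not show Tac1 to be in separate cells. Its level was 249 CPM in Irx5KO members and 304 CPM in WT members, against 307 and 233 CPM in GABAergic neurons, lower in one library and higher in the other. Fezf1, a zinc finger gene of the ventromedial nucleus, had 30 UMIs in 12 Irx5KO members and 6 UMIs in 4 WT members, against 1 UMI in 478 Irx5KO and 0 UMIs in 331 WT GABAergic neurons. After thinning it was found in 4 of 77 Irx5KO members and 2 of 59 WT members, and in none of 100 Irx5KO and 167 WT oligodendrocytes. Adcyap1, which encodes the peptide PACAP made by many ventromedial neurons, was also in 12 Irx5KO members and in 5 WT members, and 4 Irx5KO and 0 WT members held both genes. Tac1 and Fezf1 were together in 4 Irx5KO and 0 WT members. Of the members with Fezf1, 3 of 12 in Irx5KO and 1 of 4 in WT held any of Pdyn, Cck and Ppp1r17, and 0 of 12 and 0 of 4 held 2 or more, numbers too small to show that they are apart. Nr5a1, the defining factor of the ventromedial nucleus, had 3 UMIs in each library, too few to check these cells against it, and they were given no name. Sox14, another ventromedial marker, was in 3 Irx5KO and 1 WT members, at 19.8 and 5.62 CPM, against 21.2 and 43.1 CPM in GABAergic neurons. The paraventricular factor gene Sim1 was at 0, and the Pomc neuron factor gene Tbx19 was at 0, in both libraries. Otp, another paraventricular marker, had 2 UMIs in Irx5KO and 3 in WT, and Prdm12, another Pomc neuron marker, 0 and 2. Pomc had 41 UMIs in 14 Irx5KO members, 19 and 8 of them in 2 cells, and 7 UMIs in 6 WT members. At this depth these counts do not show that either kind of cell is absent, and Avp and Oxt are given below.

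The excluded Slc17a6 neurons give a comparison with close neighbours. Cck was in 23.2% of Irx5KO members and 24.6% of WT members, against 47.2% and 45.8% of the neurons with a UMI of Foxb1, Ctxn3, Cpne9 or Nxph4 (36 Irx5KO and 48 WT cells). Its levels were 544 and 427 CPM in members, against 467 and 411 CPM. In Irx5KO, 1 member held 55 of the 192 Cck UMIs, and 137 were left without it, so the higher Irx5KO level rests on that cell. The WT levels were close to each other. Pdyn was in 32 of 95 Irx5KO members and 13 of 69 WT members, against 7 of 36 Irx5KO and 0 of 48 WT cells with those genes. The Pdyn level was lower in the Irx5KO members, at 343 CPM against 424 CPM in those Irx5KO cells. Ppp1r17 was in 33.7% and 29.0% of members, against 22.2% and 14.6% of those cells, at 459 and 641 CPM against 356 and 67.4 CPM. Cacna2d1 was in 46.3% and 34.8% of members, against 58.3% and 66.7% of those cells. The median depths were 2521 and 2129 UMIs in the members, against 2352 and 2178.5 UMIs. Pdyn was in 33.7% and 18.8% of members, against 61.3% and 30.0% of the neurons with a UMI of Kiss1 or Tac2 (31 Irx5KO and 10 WT cells), at 343 and 326 CPM against 305 and 408 CPM. Those neurons held Ppp1r17 in 4 of 31 and 0 of 10 cells. Dynorphin is a known peptide of these kisspeptin neurons. Fezf1 was in 0 of 36 Irx5KO and 0 of 48 WT cells of the first group, and in 1 of 31 Irx5KO and 0 of 10 WT cells of the second. Adcyap1 was in 12.6% and 7.25% of members, against 27.8% and 43.8% of the first group, at 67.9 and 33.7 CPM against 255 and 250 CPM. In the second group Adcyap1 was in 2 of 31 and 2 of 10 cells, so it was not particular to the members. Calb1 was at 594 and 439 CPM in members, against 552 and 681 CPM in the first group and 741 and 578 CPM in the second. Nkx2-1 was at 147 and 118 CPM in members, against 110 and 135 CPM in the first group and 79.9 and 102 CPM in the second. Neither gene was higher in the members than in both groups in both libraries. These differences were not tested, since the rule chose the cells.

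Some peptide genes came from a handful of cells. Avp, the vasopressin gene, had 24 UMIs in 20 Irx5KO members, none with more than 3, and 1632 UMIs in 13 WT members. In WT, 611, 509 and 500 UMIs came from 3 cells, in which Avp was 17.9% to 20.9% of all UMIs. The same 3 cells and 1 other held all but 1 of the 315 WT UMIs of Oxt, the oxytocin gene, and Irx5KO members had 1 UMI of it. Avp and Oxt share 60 identical bases near the 3' end, so the Oxt counts of 43, 43 and 42 in the 3 Avp cells are uncertain. Whether these cells hold both transcripts was not tested. At least 1 Avp UMI was also found in 11.2% of Irx5KO and 10.3% of WT oligodendrocytes, so low Avp counts in members cannot be told from background. After thinning Avp was in 2 of 77 Irx5KO and 5 of 59 WT members, but thinning takes out single UMIs of any origin. Sst, the somatostatin gene, had 17 UMIs in Irx5KO members, and 509 of its 513 UMIs in WT members were in 1 cell. Npvf had 327 UMIs in Irx5KO members, 324 of them in 1 cell, and 0 in WT members. Gal had 203 UMIs in Irx5KO members, 111 and 48 of them in 2 cells, and 16 UMIs in WT members. Without their leading cell, Sst was left with 14 UMIs in Irx5KO and 4 in WT, and Npvf with 3 and 0.

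**Figure D4:**
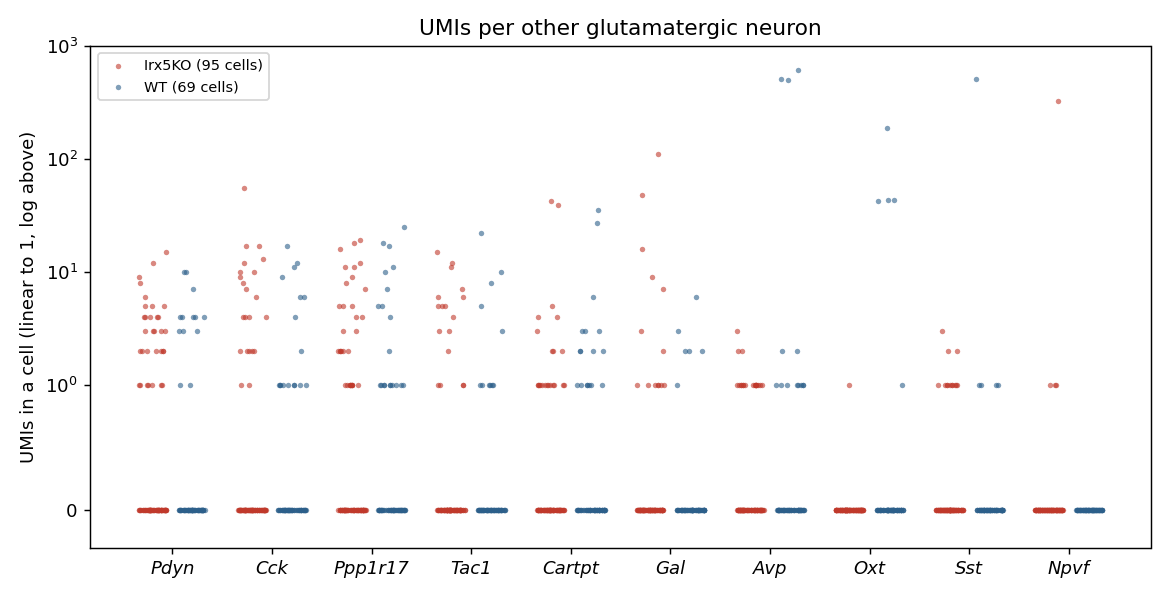
UMIs of 10 genes in each of the 95 Irx5KO (red, left) and 69 WT (blue, right) members, on an axis that is linear to 1 and logarithmic above. Pdyn, Cck, Ppp1r17 and Tac1 are spread over many cells of both libraries, while Avp, Oxt, Sst and Npvf are high in 1 to 4 cells of a single library.

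The same holds for the glial transcripts. The 9 oligodendrocyte markers summed to 688 UMIs in Irx5KO members and 69 UMIs in WT members, with 0 to 557 UMIs in an Irx5KO member and 0 to 6 UMIs in a WT member. Without the barcode richest in other cell types' markers in each library, the sums were 131 UMIs in Irx5KO members and 68 UMIs in WT members, a ratio of 0.988 (0.732 to 1.34). The Irx5KO barcode at the top, of 10247 UMIs, also held 45 of the 47 UMIs of Mal, an oligodendrocyte gene, in Irx5KO members, against 1 UMI in WT members. Microglial Ctss had 0 UMIs in Irx5KO members and 15 in WT members, 14 of them in 1 cell. The pituitary hormone genes Gh and Prl had 18 and 13 UMIs in Irx5KO members and 0 in WT members. Haemoglobin gene Hbb-bs had 6 UMIs in Irx5KO and 16 in WT. The GABAergic neurons of the Irx5KO library held 61.6 CPM of Gh and those of WT 0 CPM.

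Between genotypes, 327 of the 2453 measured genes (13.3%) were at least 1.5-fold higher in Irx5KO members and 213 (8.68%) at least 1.5-fold lower. In GABAergic neurons, which had more UMIs, 13.1% of 8947 genes were higher and 7.04% lower, 20.2% in all, against 22% in the members. The balance turned round in barcodes under 5000 UMIs, with 95 genes higher and 138 lower, and after thinning, with 22 higher and 31 lower. The median log2 ratio over all measured genes was 0.04 in members. These counts are of size alone. Of the 24 genes named here, 12 per direction, 10 of the higher and 9 of the lower share a run with another annotated transcript. The run is at least 60 identical bases near the 3' end of the named gene, so reads could be split among genes that share it.

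Among the 12 higher genes, 5, Gm12286, Gm4575, Gm5863, Gm5944 and Gm8174, are processed pseudogenes of Gapdh (chr6:125161715-125166467, minus strand), the gene of a glycolytic enzyme. The stretch below, bases 712 to 771 of the longest annotated Gapdh coding sequence, is shown because it makes the copies hard to tell apart. It is given with the best match in each pseudogene, from the GENCODE vM21 transcripts (mm10), and a capital marks a base unlike Gapdh.
Gapdh: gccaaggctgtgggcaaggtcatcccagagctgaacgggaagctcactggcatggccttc
Gm12286: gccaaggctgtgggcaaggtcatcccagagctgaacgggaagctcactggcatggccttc
Gm4575: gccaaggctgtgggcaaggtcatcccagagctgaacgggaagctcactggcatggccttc
Gm5863: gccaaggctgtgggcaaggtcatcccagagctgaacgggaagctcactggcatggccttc
Gm5944: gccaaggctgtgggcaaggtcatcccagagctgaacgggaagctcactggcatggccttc
Gm8174: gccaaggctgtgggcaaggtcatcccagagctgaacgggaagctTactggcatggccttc

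Gapdh itself had 12 UMIs in Irx5KO members and 7 UMIs in WT members. Gm5863, on chromosome X, had 74 UMIs in 43 Irx5KO members and 6 UMIs in 6 WT members. Summed with the 152 genes that share such a run with it, Gapdh had 1650 UMIs in 80 Irx5KO members and 328 UMIs in 47 WT members, a ratio of 2.53 (2.25 to 2.86). The same sum in GABAergic neurons gave 2.25 (2.15 to 2.36), so the sum was higher in Irx5KO in both kinds of cell. Among the higher genes, Gm5160, Gm11942, Gm12328, Gm13573 and Atp5g1 also share such a run with other genes, called partners here. So do Gm10263, Gm12338, Gm7308, Rps28, Rpl37a, Rn7sk, Nop53, Mrps33 and 5730455P16Rik among the lower. The run alone made a partner, and some were not copies, such as Adh5 for Atp5g1, Abcb4 for Rpl37a and Arrb1 for Nop53. Partners of Atp5g1 held 749 UMIs in Irx5KO members and 387 in WT members. Adding UMIs of unlike genes can itself bring a ratio closer to no difference, so such sums do not show that reads were split. Summed with their partners, many of the genes came closer to no difference on the log2 scale. Atp5g1 was 1.66 alone and 0.05 with its partners, Gm13573 2.18 and 0.46, Gm12328 1.34 and 0.37, Gm11942 1.25 and 0.41, and Gm5160 2.24 and 0.96. Gm7308 was -1.35 alone and -0.40 with its partner, Rpl37a -0.95 and -0.23, Nop53 -1.50 and -0.67, and 5730455P16Rik -1.41 and -0.60. Of these, Gm5160, Nop53 and 5730455P16Rik were still more than 1.5-fold apart with their partners. So were Rps28 and Gm10263, which share sequence with each other and were at -1.66 together, Mrps33 at -1.67, Rn7sk at -1.24 and Gm12338 at -1.14.

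The named genes Sez6, Pcsk2, Kmt2a, Npepps and Pcdh7 have no such partner. Sez6 (chr11:77930800-77979048, plus strand) encodes a membrane protein of dendrites and synapses. It had 32 UMIs in 23 Irx5KO members and 86 UMIs in 37 WT members, or 90.6 and 484 CPM, a ratio of 0.187 (0.121 to 0.284). The Irx5KO cells held at most 4 UMIs and the WT cells at most 7. GABAergic neurons had 82.3 CPM in Irx5KO and 467 CPM in WT, a ratio of 0.176, so the low Irx5KO level was not limited to the members. After thinning, Sez6 was found in 7 of 77 Irx5KO members and 22 of 59 WT members, and in 3 of 100 Irx5KO and 2 of 167 WT oligodendrocytes. Of its relatives, Sez6l2 had a ratio of 1.02 and Sez6l of 1.75 (0.968 to 3.34).

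Pcsk2, which encodes a protease that processes prohormones, had 55 UMIs in 33 Irx5KO members and 71 UMIs in 30 WT members, a ratio of 0.390 (0.269 to 0.562), against 0.731 in GABAergic neurons. Kmt2a, the gene of a histone methyltransferase, had 51 UMIs in 35 Irx5KO members and 62 UMIs in 31 WT members, a ratio of 0.414 (0.280 to 0.610), against 0.983 in GABAergic neurons. Npepps, the gene of a cytosolic aminopeptidase, had 71 UMIs in 44 Irx5KO members and 8 UMIs in 6 WT members, a ratio of 4.47 (2.15 to 10.7), against 1.08 in GABAergic neurons. On the log2 scale the Npepps difference of 2.16 was 0.68 when only the GABA genes were excluded and 0.26 after thinning. Pcdh7, a protocadherin gene, had 61 UMIs in 27 Irx5KO members and 9 UMIs in 7 WT members, a ratio of 3.41 (1.68 to 7.82), against 1.22 in GABAergic neurons. The differences between members and GABAergic neurons were not tested. All 4 genes overlap exons of a transcript on the opposite strand, and no source used here says whether counting took strand into account.

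**Figure D5:**
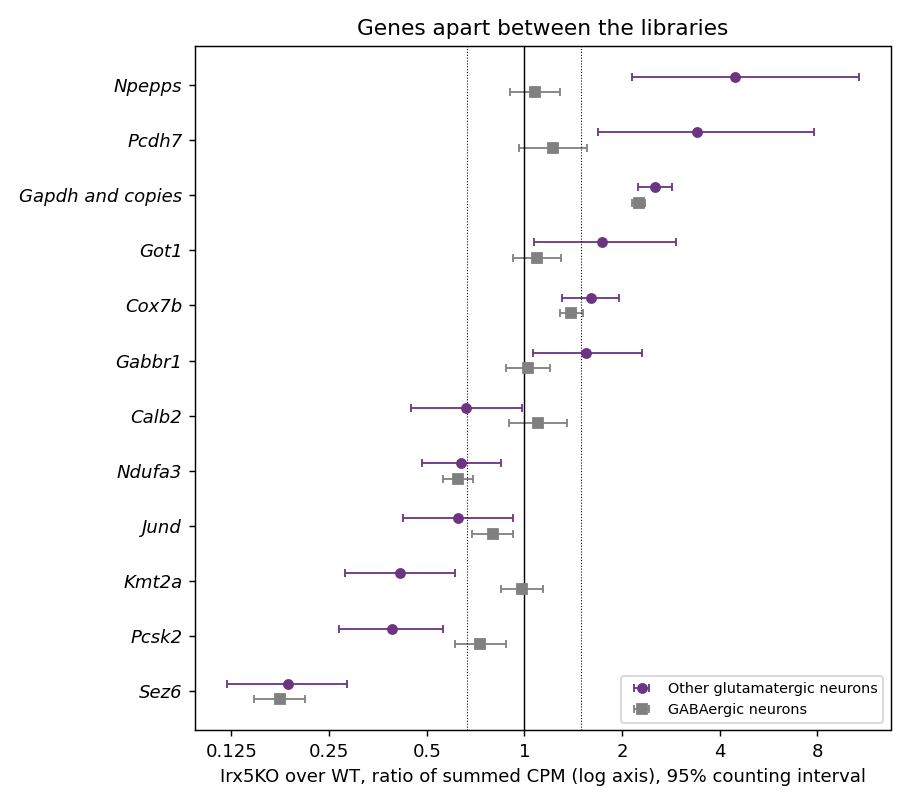
Ratio of Irx5KO to WT summed CPM, on a log axis with 95% counting intervals, in other glutamatergic neurons (circles) and GABAergic neurons (squares), for reported genes at least 1.5-fold apart with an interval that leaves out 1, at least 50 UMIs, no near-identical partner and no cell holding over 20% of the higher library's UMIs, and for Gapdh with its copies. Sez6, at 0.187 and 0.176, and Gapdh with its copies, at 2.53 and 2.25, lie close together in both kinds of cell, while Npepps, at 4.47 and 1.08, lies apart. Exons of Pcsk2, Kmt2a, Npepps, Pcdh7, Jund and Ndufa3 overlap a transcript on the opposite strand. Dotted lines mark 1.5-fold.

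The transmitter machinery was described by lists of genes, to be read against the 13.3% and 8.68% above. Of 10 genes of glutamate handling and release besides Slc17a6, which the rule used, 4 were measured, 3 higher and 1 lower, with a median log2 ratio of 0.70. Got1, an aminotransferase gene, had 76 UMIs in 44 Irx5KO members and 22 UMIs in 18 WT members (ratio 1.74, 1.07 to 2.94). Its log2 value of 0.80 was 0.078 when only the GABA genes were excluded, 0.36 after thinning and 0.44 in barcodes under 5000 UMIs. Glud1, the glutamate dehydrogenase gene, had 39 UMIs in Irx5KO and 13 in WT (1.51, 0.789 to 3.08). Slc38a1, an amino acid transporter gene, had 37 UMIs in Irx5KO and 33 in WT (0.564, 0.343 to 0.931), and its log2 value of -0.83 was -0.36 after thinning. Slc17a6 had 603 CPM in Irx5KO members and 793 CPM in WT members.

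Of 24 glutamate receptor genes, 5 were measured, and Gria3 had a ratio of 1.63 (0.857 to 3.30), an interval that covers no difference. The AMPA receptor gene Gria2 had 253 UMIs in 71 Irx5KO members and 139 UMIs in 51 WT members, a ratio of 0.916. Of 15 GABA receptor genes, 9 were measured and 2 were higher, among them Gabbr1 at 1.55 (1.06 to 2.31; log2 0.63, and 0.17 when only the GABA genes were excluded), with a median log2 ratio of 0.41. In GABAergic neurons the same 9 genes had a median of 0.24. None of 13 measured genes of vesicle release outside the rule, and none of 6 measured voltage-gated channel genes, was 1.5-fold apart.

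Among hypothalamic transcription factors 3 of 66 were measured and none was apart. Nkx2-1 had 52 UMIs in 34 Irx5KO members and 21 UMIs in 16 WT members, and Isl1, a LIM homeobox gene, 45 UMIs in 23 and 25 UMIs in 13. Lower counts separated some others. Bsx, a homeobox gene of arcuate neurons, had 19 UMIs in 14 Irx5KO members and 1 UMI in 1 WT member (log2 3.26). The leading Irx5KO cell held 3 of these UMIs. Without the leading cell in each library the value was 1.43, but the WT count was then 0 and was set to 3. The fall thus came from that setting. Rorb, an orphan nuclear receptor gene, had 7 UMIs in 7 Irx5KO members and 19 UMIs in 9 WT members. Among receptors for feeding and reproductive signals, 3 of 44 were measured and none was apart. Oprl1, the nociceptin receptor gene, had 33 UMIs in 26 Irx5KO members and 4 UMIs in 4 WT members (ratio 4.15, 1.48 to 16.1).

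Among activity genes, Fos had 155 UMIs in 32 Irx5KO members and 76 UMIs in 27 WT members, a ratio of 1.03. Of 5 measured immediate early genes, Jun (0.475, 0.348 to 0.648) and Jund (0.624, 0.423 to 0.925) were lower. Exons of Jun and of Jund also overlap a transcript on the opposite strand, with the limit given above for Pcsk2. Of 10 measured heat shock genes, Dnajb1 was lower (0.532). Of 52 measured nuclear genes of oxidative phosphorylation 4 were higher and 3 lower. Of 8 measured mitochondrially encoded genes 1, mt-Rnr2, was lower (0.634), with a median log2 ratio of -0.44. The members' mitochondrial share had a median of 1.43% in Irx5KO and 1.98% in WT. Among 10 measured calcium genes, Nrgn, the calmodulin-binding neurogranin gene, was higher with 92 UMIs in 27 Irx5KO members and 14 UMIs in 11 WT members (3.31, 1.88 to 6.29), and Calb2 lower (0.661, 0.447 to 0.983). The log2 value of Nrgn, 1.73, was 0.83 without barcodes with 3 or more UMIs of other cell types, 0.84 in barcodes under 5000 UMIs and 0.33 after thinning. Of 11 measured imprinted genes outside the rule 1, Dlk1, was lower (0.534), and it was not lower without barcodes with 3 or more UMIs of other cell types (log2 0.062). Several of these lower genes came nearer to no difference on the log2 scale under other settings. In barcodes under 5000 UMIs, Jund was at -0.25, mt-Rnr2 at -0.19 and Calb2 at -0.12, and without the leading cell in each library Dnajb1 was at -0.47. Of 13 measured neuropeptide and granule genes 2 were higher and 5 lower. Gal, Npvf, Avp, Oxt and Sst are those described above, and Cartpt (0.635) and Vgf (0.590) were the others. A single WT cell held 24 of the 35 Vgf UMIs in WT members, and the leading Cartpt cells held 42 of 116 UMIs in Irx5KO and 35 of 92 in WT. Neither of 2 measured metallothionein genes, nor the 1 measured tanycyte marker, was apart. The oligodendrocyte marker Mbp had 50 UMIs in Irx5KO members and 15 UMIs in WT members, a ratio of 1.68 (0.927 to 3.22), and 0.958 without the barcode richest in other cell types' markers in each library.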

How the data were processed

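Per the labels' protocols, live cells were captured by Drop-seq and the 3' ends were sequenced. Per the submitters' processing notes, bcl2fastq, Picard, STAR 2.6.0b, Seurat 3 and build mm10 were used, and the sources used here give no role for each. The authors deposited WT as UMI counts, and Irx5KO and a merged table as natural log values, ln(1 + count scaled to 10000 per barcode). Inverting these gave whole numbers for 100% of values within 1e-06, and 0 of 4275938 compared WT UMIs differed. The merged table gave all results.

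UMIs were summed over cells per library and given as CPM. Ratios have exact conditional binomial 95% intervals and shares Clopper-Pearson intervals, which cover counting error only. Genes with at least 50 UMIs over both libraries count as measured, and a 0 was set against 3 counts (UMIs, or cells for a share) per library. No doublet caller was run. Named genes were the rule genes, the Iroquois genes, up to 6 most abundant and 4 apart per list (27 lists), 12 per direction between genotypes, 15 above and 10 below GABAergic neurons. Those between genotypes had at least 10 cells and at most 20% of UMIs in 1 cell. A part of the named genes is described, and 3 genes that met these rules are not reported here. Fezf1, Adcyap1 and the gene combinations were followed after values were seen. Members and lists were chosen with earlier results of these data known. Python 3.11.15, numpy 2.4.6 and scipy 1.17.1 were used, checked on simulated counts.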

Additional observations from a re-analysis of the deposited data

Results flagged for a closer look

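Sst had a log2 ratio of -5.91 in the members and 0.93 in GABAergic neurons, opposite directions, and the difference was not tested. The value was 0.81 in members without the leading cell in each library.

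The WT table held 173 barcodes that were not in the merged table. Of these 21 had at least 500 genes, 12 were neurons by the rule and 1 passed the whole rule for members. It was not used above.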

How the results depend on the processing

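No paired analysis was possible because each genotype has 1 library. The share of barcodes kept a ratio above 1 under the alternatives run, except 0.905 without barcodes with 3 or more UMIs of other cell types, and was 1.01 with only barcodes under 5000 UMIs, an alternative chosen after seeing the data. The share of neurons stayed below 1 under all alternatives run. Counts of genes at least 1.5-fold higher and lower, 327 and 213, were 152 and 133 with Slc17a6 at 2 or more UMIs, 505 and 323 with only Slc32a1, Gad1 and Gad2 at 0, 158 and 139 without barcodes with UMIs of other types, 22 and 31 after thinning to 1000 UMIs, 1174 and 763 at a minimum of 20 UMIs, 80 and 76 at 100 UMIs, and 95 and 138 in barcodes under 5000 UMIs. These settings change how many genes were tested, and after thinning and under 5000 UMIs more genes were lower than higher. Of the 24 genes named between genotypes, 19 to 24 stayed 1.5-fold apart in the same direction. Npepps was at 0.26 (log2) after thinning, and Sez6 ranged from -3.14 to -2.15.

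Gene lists with a median 1.5-fold apart, 2 at first, numbered 1 with a higher gene minimum, at least 4 neuronal genes, only GABA genes excluded, at most 5% mitochondrial UMIs, median-of-ratios scaling or means over cells, 4 with Slc17a6 at 2 UMIs, without barcodes with other types' UMIs or under 5000 UMIs, and 0 after thinning. The glutamate handling median, taken with Slc17a6, was 0.59 and became -0.16 after thinning. Sst reversed to 1.14 with 4 neuronal genes, 1.32 with Slc17a6 at 2 UMIs, 0.56 without other-type barcodes, 0.26 after thinning, 0.81 without the leading cell and 1.497 under 5000 UMIs. Dlk1 was 0.062 without other-type barcodes and 0.85 after thinning, Egr2 -0.021 without other-type barcodes, and after thinning Cox7c 0.010 and Gm4575 -0.48. The cause was not tested. Depth limits most comparisons, since the median member held 2521 UMIs in Irx5KO and 2129 UMIs in WT, and each genotype has 1 library.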
